A study of Mus musculus with 21 samples.

Results

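The interferon-stimulated genes described here were 46 named mouse genes, all of which were rows of a count table of 23713 genes, and they were read by gene symbol in every library. They were measured by polyA RNA-seq of keratinocytes isolated from the tail skin of 3 mouse models of basal cell carcinoma (BCC), named SmoM2, Gnas-eKO and PKI. Each model had 3 libraries from tumour-free epidermis (Con) and 4 from tumour-bearing mice (BCC), 21 in all. The SmoM2 mice were sampled on day 29 from induction of the tumours, the Gnas-eKO mice on day 42 and the PKI mice on day 57. Each model was a labelled batch of its own (A, B and C), so model, day and batch cannot be told apart. SmoM2 is an activated form of the Hedgehog receptor component Smoothened, and Gnas encodes the stimulatory G protein subunit that activates adenylyl cyclase. The alleles of the Con mice, the age of the mice, the driver of each transgene or deletion and the meaning of PKI are not given in the sources used here. The table's headers give each of the 21 libraries an identifier of its own, like an animal's, but no label says what it marks, so p-values are said only to measure the spread between libraries. The identifiers start differently for SmoM2 BCC and SmoM2 Con, and what that prefix marks and the tumour cannot be told apart. Within each model the question was whether the members differed between BCC and Con keratinocytes, gene by gene and as a mean.

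Type I and type III interferons signal through the kinases JAK1 and TYK2 to a complex that holds STAT2 and IRF9 and acts on interferon-stimulated response elements (ISRE) in DNA. Interferon gamma signals through JAK1 and JAK2 to gamma-activated sites (GAS), and the transcription factor IRF1 is an early target that in turn binds ISRE-like sequence. The induced genes encode sensors of viral nucleic acid, enzymes that block viral replication, GTPases that attack pathogen vacuoles and feedback regulators; keratinocytes make and answer interferons in skin.

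RefSeq promoters (GRCm38.p6, 250 bases before to 50 after a gene start) were listed for 37 of the 46 members and were searched on both strands for the ISRE-like letters (GAAA, any 2 bases, GAAA) and the GAS-like letters (TTC, any 3 bases, GAA). The ISRE letters were in a promoter of 20 of the 37 members (54.1%), against 3.99% of the 27025 genes with a listed promoter. The GAS letters were in 10 of the 37 (27%), against 9.55% of genes. The windows below belong to members that the results turn on, read on the strand of the gene, and capitals mark the ISRE match, or the GAS match in Irf1. The Gbp7 window also held 2 GAS matches, left in lower case. Irf1 held the GAS letters and no ISRE match. Irgm1, Gbp7, Gbp2 and Oas3 held ISRE letters and were higher in BCC of at least 1 model. Isg15, tested and not called in any model, and Rsad2, too low to be tested in any, also held them and are shown as well-known interferon targets; overlapping matches in Irgm1 and Isg15 were merged in capitals.
Irf1: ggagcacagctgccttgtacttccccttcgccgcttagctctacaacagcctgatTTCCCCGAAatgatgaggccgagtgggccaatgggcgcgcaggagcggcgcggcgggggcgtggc
Irgm1: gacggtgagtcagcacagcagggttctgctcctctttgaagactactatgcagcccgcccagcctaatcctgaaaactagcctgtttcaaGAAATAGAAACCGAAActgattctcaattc
Gbp7: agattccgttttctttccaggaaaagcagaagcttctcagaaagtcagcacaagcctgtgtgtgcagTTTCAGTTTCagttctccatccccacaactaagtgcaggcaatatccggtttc
Gbp2: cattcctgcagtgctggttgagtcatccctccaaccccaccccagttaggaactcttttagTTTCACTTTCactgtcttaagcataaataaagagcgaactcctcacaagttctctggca
Oas3: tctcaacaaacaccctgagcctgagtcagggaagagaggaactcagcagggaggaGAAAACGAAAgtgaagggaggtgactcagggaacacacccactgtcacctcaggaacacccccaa
Isg15: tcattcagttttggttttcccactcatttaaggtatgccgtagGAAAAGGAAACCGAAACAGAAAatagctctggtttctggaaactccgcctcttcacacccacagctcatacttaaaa
Rsad2: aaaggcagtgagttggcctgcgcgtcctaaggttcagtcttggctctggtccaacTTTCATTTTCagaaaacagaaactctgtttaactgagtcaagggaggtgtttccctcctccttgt
The windows lie at chr11:53769869-53769988 (Irf1, plus strand), chr11:48871421-48871540 (Irgm1, minus), chr3:142530216-142530335 (Gbp7, plus), chr3:142620543-142620662 (Gbp2, plus), chr5:120777670-120777789 (Oas3, minus), chr4:156200820-156200939 (Isg15, minus) and chr12:26456508-26456627 (Rsad2, minus). No match to either motif was found in the listed windows of Cmpk2, Oasl2 and Sp100. Of the members with a listed promoter that were tested in any model, 6 of 14 with an ISRE match were called in at least 1 model. Without an ISRE match it was 4 of 15, and a link between motif and call was not tested.

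Total counts were 16645858 to 22251132 per library, and levels are given as CPM, the counts scaled to edgeR's normalised library sizes and given per 1000000 counts. The 10 keratinocyte markers examined were detected in every group and summed to 29180 to 71547 CPM per library. They moved between groups: 6 were lower and 2 higher in SmoM2 BCC, 4 lower and 2 higher in PKI BCC, and the median sum was 64195 CPM in Con and 42312 CPM in BCC of SmoM2. In Gnas-eKO edgeR called 0, while the sums did not overlap, at 55746 to 67035 CPM in Con and 29180 to 49289 CPM in BCC. Gnas was lower in the Gnas-eKO BCC libraries (51.4 to 117 CPM) than in their Con libraries (171 to 177 CPM). Gnas-eKO BCC replicate 2 stood apart on the first principal component of all genes, at -20.4 against 46.3 to 48.5 for the other BCC libraries of that model, so Gnas-eKO counts are also given without it. From Xist and Y-linked reads, each BCC group held 2 female and 2 male libraries. The Con groups held 1 female and 2 male libraries in SmoM2 and in PKI, and 2 female and 1 male in Gnas-eKO.

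The members' levels ran from well above the detection limit down to it. Per kilobase of exon, the highest Con levels were those of Trim25, a ubiquitin ligase that activates RIG-I (8.40 to 8.63 CPM per kilobase across the 3 models), Ifi35 (8.01 to 8.25) and the RNA-editing enzyme gene Adar (6.33 to 7.02). Levels of at least 10 CPM in all 6 groups were found for 9 members (Stat2, Irf9, Trim25, Ddx58, Eif2ak2, Adar, Parp9, Dtx3l and Ifi35). The mean was under 1 CPM in all 6 groups for 14 members, including the classical interferon targets Ifit1, Ifit3, Oas2, Rsad2, Usp18 and Zbp1. Ifi44 had no count in SmoM2 or Gnas-eKO, which allows up to 0.173 and 0.168 CPM per library (3 counts; counting error only). A filter on low counts left 33 members testable in PKI, 30 in SmoM2 and 28 in Gnas-eKO, with 28 testable in all 3 models and 12 in none.

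In SmoM2, 6 of the 30 tested members were higher in BCC and 0 were lower at an adjusted p under 0.05 (edgeR quasi-likelihood test, Benjamini-Hochberg over all genes). Among all 16370 genes tested in SmoM2, 29.7% were called, 16.2% higher and 13.5% lower, so the share of members called higher (20%) was near the background. The 6 were Cmpk2, Oasl2, Sp100, Gbp7, Irf1 and Irgm1. At an unadjusted p under 0.05, 9 members passed, against 40.4% of all genes. All BCC libraries lay above all Con libraries for 9 tested members and below for 1 (Mx2), against 20.5% and 18% of all genes. The median log2 fold change was 0.45 over the tested members, with 23 of 30 above 0, and 0.00 over all genes tested. It was 0.21 over the 20 members whose Con libraries alone passed the filter on low counts.

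In PKI, 8 of the 33 tested members were higher in BCC and 0 were lower, where 34.5% of 16397 genes were called, 18.7% higher and 15.8% lower; the members' share called higher was 24.2%. At an unadjusted p under 0.05, 12 members passed, against 44.7% of all genes. The 8 were Trim30a, Gbp2, Oas1a, Oasl2, Sp100, Oas3, Irf1 and Parp14. All BCC libraries lay above all Con libraries for 10 tested members and below for 0, against 23.1% and 20.1% of all genes. The median log2 fold change was 0.50 over the members and 0.00 over all genes, with 26 of 33 members above 0, and 0.19 over the 21 members whose Con libraries alone passed the filter.

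In Gnas-eKO, 0 of the 28 tested members were called by edgeR in either direction, where 1.63% of 16409 genes were called, 1.46% higher and 0.165% lower. At an unadjusted p under 0.05, 6 members passed (Irf1, Parp14, Gbp2, Irgm2, Gbp7 and Igtp), against 19.6% of all genes, and DESeq2 called 3 (Irf1, Gbp2 and Parp14), where it called 9.35% of all genes. Without BCC replicate 2, edgeR called 2, Irf1 and Gbp2, where it called 11.8% of all genes. All BCC libraries lay above all Con libraries for 4 tested members and below for 1 (Adar), against 10.3% and 9.16% of all genes. The median was 0.30 over the members, with 23 of 28 above 0, and 0.02 over all genes; it was 0.28 over the 23 members that passed on Con alone.

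The low-count filter bears on these counts, because a member at the detection limit in Con could enter the test only through BCC. Of the tested members, 23 in Gnas-eKO, 21 in PKI and 20 in SmoM2 passed the filter on their Con libraries alone. Of those, 2 were higher in SmoM2 (Irf1 and Irgm1), 0 in Gnas-eKO and 2 in PKI (Irf1 and Parp14). These are 10% of such members in SmoM2 and 9.52% in PKI. Of all genes that passed on Con alone, 14.8% were higher and 14.9% lower in SmoM2. The shares were 16.6% higher and 17.4% lower in PKI, and 1.3% higher and 0.182% lower in Gnas-eKO. The other called members, Cmpk2, Oasl2, Gbp7 and Sp100 in SmoM2 and Trim30a, Gbp2, Oas1a, Oasl2, Sp100 and Oas3 in PKI, entered only with their BCC libraries.

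**Figure D1:**
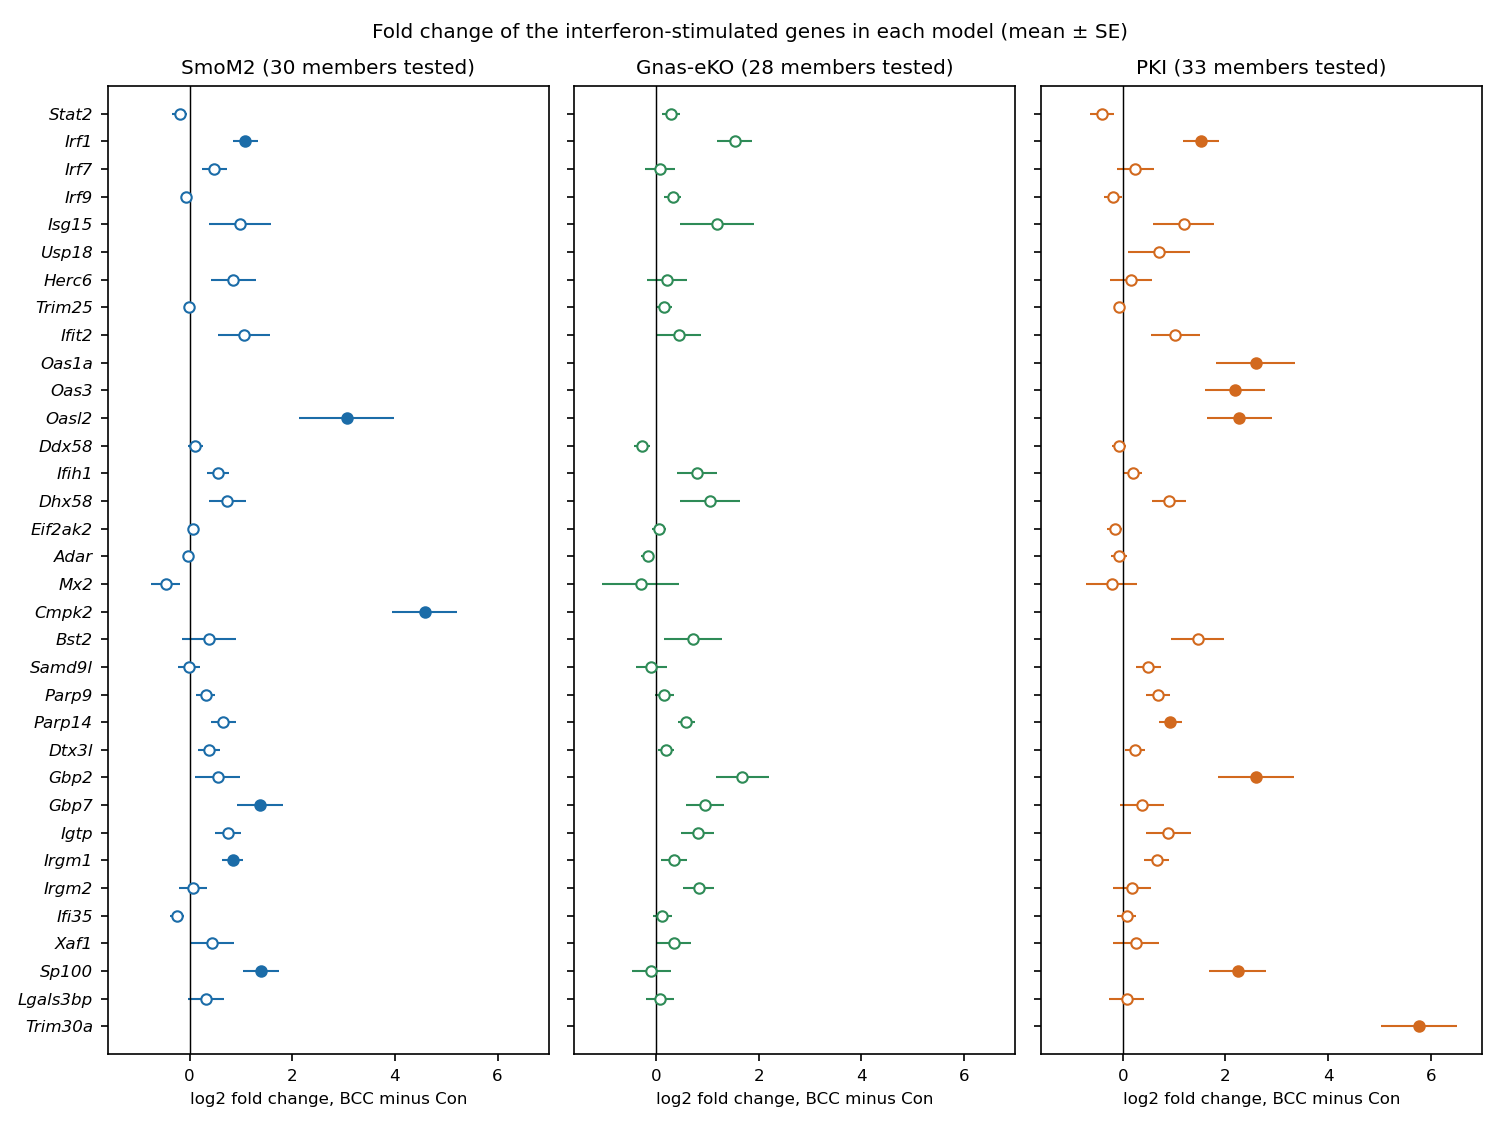
Log2 fold change of BCC minus Con (x axis, with SE bars) for each tested member (rows) in SmoM2, Gnas-eKO and PKI; filled points passed an adjusted p under 0.05 and open points did not, and a missing point was not tested. Filled points number 6, 0 and 8 and all lie to the right of 0, led by Cmpk2 in SmoM2 (4.58) and Trim30a in PKI (5.78).

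Among the 4 transcription factors of the set, Irf1 was the one called, and it was called in SmoM2 and PKI. Irf1 was at 8.49, 4.27 and 4.79 CPM in SmoM2 Con and at 13.5, 14.7, 11.8 and 9.89 CPM in SmoM2 BCC. In PKI it was at 7.36, 3.29 and 4.57 CPM in Con and at 21.4, 9.35, 15.8 and 12.4 CPM in BCC. In Gnas-eKO it was at 4.20, 6.09 and 7.02 CPM in Con and at 15.6, 8.32, 21.9 and 20.7 CPM in BCC, with replicate 2 the lowest BCC library. Every BCC library was above every Con library in each of the 3 models. The log2 fold changes were 1.08 (SE 0.25, edgeR adjusted p = 0.00966) in SmoM2, 1.53 (SE 0.35, adjusted p = 0.0111) in PKI and 1.53 (SE 0.35, adjusted p = 0.0687) in Gnas-eKO. The Irf1 call in SmoM2 and PKI remained without any 1 library, and in Gnas-eKO the adjusted p was 0.00449 without BCC replicate 2.

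Stat2 and Irf9, which encode parts of the factor that binds ISRE in the type I response, were measured well above the limit and did not pass. Stat2 was at 16.2 to 24.2 CPM in SmoM2 Con and 16.2 to 21.0 CPM in BCC, a log2 difference of -0.20 (SE 0.15). It was 0.28 (SE 0.17) in Gnas-eKO and -0.40 (SE 0.24) in PKI, where BCC replicates 1 and 2 were at 11.5 and 8.94 CPM and replicates 3 and 4 at 19.2 and 15.4 CPM. Without PKI BCC replicate 3, Stat2 was called lower (adjusted p = 0.0465). Irf9 differed by -0.07 (SE 0.11), 0.32 (SE 0.16) and -0.19 (SE 0.17) in SmoM2, Gnas-eKO and PKI. Irf7, the factor that amplifies type I interferon production, was at 1.75 to 4.27 CPM over the SmoM2 and PKI libraries and did not pass in any model, at 0.48 (SE 0.24), 0.07 (SE 0.30) and 0.24 (SE 0.36). Exons of Irf9 overlap those of Rnf31, and exons of Irf7 those of Phrf1.

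Isg15, the ubiquitin-like protein conjugated to targets during an interferon response, was low in all libraries. It was at 0.0461, 0.462 and 0.763 CPM in SmoM2 Con and at 1.06, 0.785, 0.658 and 0.769 CPM in BCC. PKI Con libraries were at 0.889, 0.124 and 0.475 CPM, and PKI BCC libraries at 1.93, 1.13, 1.01 and 0.597 CPM. The groups overlapped in every model. The log2 differences were 0.98 (SE 0.61), 1.18 (SE 0.72) and 1.19 (SE 0.59) in SmoM2, Gnas-eKO and PKI, and none passed, with adjusted p of 0.267, 0.411 and 0.150. Usp18, which removes ISG15 and damps the receptor, was testable in PKI alone, at 0.71 (SE 0.60). Trim25, at 42.5 to 67.4 CPM over all 21 libraries, and Herc6, the mouse ISG15 ligase, did not pass in any model.

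The IFIT proteins bind viral RNA, and 3 of the 4 members of this family were not testable in any model. Ifit3 was at or below 0.264 CPM in every library, and Ifit1 at or below 1.12 CPM. Ifit1 had 2 counts over the SmoM2 Con libraries and 30 over the BCC libraries, a ratio of 10.4 per summed library size with an exact 95% counting interval of 2.63 to 89.6, and every SmoM2 BCC library was above every Con library. It was called higher there with no filter and in the joint fit. Ifit2, the testable one, had log2 differences of 1.05 (SE 0.51), 0.44 (SE 0.43) and 1.02 (SE 0.48) in SmoM2, Gnas-eKO and PKI and passed in none.

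The OAS family makes the second messenger that activates RNase L, and it held called members in SmoM2 and PKI. Oasl2, an OAS-like protein with ubiquitin-like domains, was at 0, 0.116 and 0.272 CPM in SmoM2 Con and at 1.79, 1.67, 0.329 and 0.513 CPM in BCC. In PKI it was at 0.148, 0.497 and 0.297 CPM in Con and at 2.49, 0.976, 1.98 and 0.543 CPM in BCC. No BCC library fell into the Con range in either model, and the high BCC libraries were replicates 1 and 2 in SmoM2 and replicates 1 and 3 in PKI. The log2 fold changes were 3.06 (SE 0.92, adjusted p = 0.0335) and 2.27 (SE 0.63, adjusted p = 0.0217). The SmoM2 call was lost without Con replicate 1 or 2 (highest adjusted p 0.107), and without BCC replicate 1, 2 or 4 Oasl2 no longer passed the filter on low counts, so the call was absent in 5 of 7 fits. It was lost in PKI without Con replicate 1 or 3 (highest 0.0766). In Gnas-eKO, Oasl2 was at 0.0537 to 0.484 CPM over all 7 libraries and was not testable.

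Oas3 and Oas1a were testable in PKI. Oas3 was at 0.395, 0.249 and 0.0594 CPM in Con and at 1.37, 0.565, 1.58 and 0.923 CPM in BCC, a log2 fold change of 2.18 (SE 0.59, adjusted p = 0.0184). Oas1a was at 0.148, 0 and 0.297 CPM in Con and at 1.83, 0.668, 0.704 and 0.543 CPM in BCC, a log2 fold change of 2.59 (SE 0.77, adjusted p = 0.0280). Both rested on few counts, 13 against 91 for Oas3 and 8 against 75 for Oas1a over the groups. The Oas3 call was lost without Con replicate 2 or 3 (highest adjusted p 0.0618). The Oas1a call was lost without Con replicate 1, Con replicate 2 or BCC replicate 1 (highest 0.0803). Most estimated counts of Oas1a and Oas1g were not whole numbers, so the split of reads between them and near copies is uncertain. Oas1a had 0 counts in Gnas-eKO Con and 22 in BCC, at least 1.66-fold higher against a floor of 3 counts per Con library. Oas2 had at most 16 counts in any group and was not testable.

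The sensors of double-stranded RNA included members at steady levels. Ddx58, which encodes RIG-I, was at 12.5 to 18.0 CPM in SmoM2 Con and 14.7 to 18.6 CPM in BCC. Its log2 differences were 0.11 (SE 0.15), -0.28 (SE 0.16) and -0.08 (SE 0.13) in SmoM2, Gnas-eKO and PKI. Eif2ak2, the gene of the kinase PKR, had differences of 0.06 (SE 0.09), 0.05 (SE 0.14) and -0.16 (SE 0.15), and Adar -0.04 (SE 0.08), -0.17 (SE 0.12) and -0.08 (SE 0.16). None of these 3 genes passed in any model. Ifih1, which encodes MDA5, was at 6.27, 7.74 and 4.19 CPM in SmoM2 Con and at 10.4, 10.0, 7.67 and 7.48 CPM in BCC, a difference of 0.55 (SE 0.22, adjusted p = 0.0926). Under the replicate block it passed (adjusted p = 0.0490), although replicate numbers did not pair the libraries. The Ifih1 difference was 0.79 (SE 0.39) in Gnas-eKO, where BCC replicates 1 and 4 were at 16.4 and 15.4 CPM and replicates 2 and 3 at 6.55 and 6.72 CPM, and 0.19 (SE 0.18) in PKI. Dhx58, encoding the third RIG-I-like protein LGP2, came close in PKI at 0.90 (SE 0.32, adjusted p = 0.0578), with all BCC above all Con libraries. Zbp1, a sensor of Z-form nucleic acid, was not testable in any model; in PKI it was at 0 to 0.247 CPM in Con and at 0.264 to 0.966 CPM in BCC.

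Among the antiviral effectors the highest fitted change in SmoM2 was that of Cmpk2, a mitochondrial nucleotide kinase. Cmpk2 was at 0.0461, 0.347 and 0.0545 CPM in SmoM2 Con and at 5.74, 3.58, 2.40 and 2.31 CPM in BCC. These were 1, 6 and 1 counts in Con and 294 counts over the 4 BCC libraries. The log2 fold change was 4.58 (SE 0.63, adjusted p = 0.000632), the ratio of counts summed over a group per summed library size 25.4 with an exact 95% counting interval of 12.7 to 59.4, and the call remained without any 1 library. Rsad2, the gene of viperin, which lies beside Cmpk2 on chromosome 12, was at 0 CPM in the 3 SmoM2 Con libraries and at 0.0919, 0, 0.0470 and 0.0513 CPM in BCC. Cmpk2 was at 0.145 to 0.748 CPM in Gnas-eKO BCC and at 0.176 to 1.03 CPM in PKI BCC, and was not testable in either.

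Bst2, which encodes the virion-retaining protein tetherin, was at 0.395, 0.684 and 0.951 CPM in PKI Con and at 3.46, 1.75, 1.23 and 0.977 CPM in BCC. The PKI difference was 1.46 (SE 0.52, adjusted p = 0.0554), just outside the threshold, and passed by DESeq2 (adjusted p = 0.0308; 37.2% of all genes called) and with no filter on low counts (0.0497). It was 0.38 (SE 0.53) in SmoM2 and 0.71 (SE 0.56) in Gnas-eKO. Mx2, a gene of the dynamin-like GTPases, is annotated in mouse as a polymorphic pseudogene. It was at 1.48, 1.62 and 1.53 CPM in SmoM2 Con and at 1.38, 0.834, 0.988 and 1.23 CPM in BCC, a difference of -0.47 (SE 0.29, adjusted p = 0.252). Mx2 did not pass in Gnas-eKO (-0.30, SE 0.75) or PKI (-0.21, SE 0.49) either. Rtp4 was near 0 in most libraries, and Samd9l, at 3.79 to 12.6 CPM over all 21 libraries, did not pass.

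Parp14, an ADP-ribosyltransferase, was called in PKI and had values in the same order in the other models. It was at 8.98, 6.34 and 7.25 CPM in PKI Con and at 16.8, 10.7, 18.4 and 11.3 CPM in BCC, a log2 fold change of 0.92 (SE 0.23, adjusted p = 0.0126). In SmoM2 it was at 6.69, 4.74 and 6.54 CPM in Con and at 9.79, 13.3, 7.29 and 7.38 CPM in BCC (0.66, SE 0.24, adjusted p = 0.0662). In Gnas-eKO it was at 6.17, 7.55 and 6.97 CPM in Con and at 11.4, 9.39, 10.7 and 9.84 CPM in BCC (0.58, SE 0.17, adjusted p = 0.115). The groups did not overlap in any of the 3 models; the PKI call was lost without Con replicate 2 (adjusted p = 0.0569). Parp9, which works with the ubiquitin ligase DTX3L, was at 0.31 (SE 0.19), 0.16 (SE 0.18) and 0.68 (SE 0.24) in SmoM2, Gnas-eKO and PKI, with an adjusted p of 0.0560 in PKI. There 4 of the 6 alternatives called it, the replicate block, DESeq2, the joint fit and sex as a covariate (adjusted p 0.000926 to 0.0392). The block used replicate numbers, which did not pair the libraries. Dtx3l itself did not pass. Exons of Parp9 and Dtx3l overlap, and those of Parp14 overlap Gm49730.

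The guanylate-binding proteins and immunity-related GTPases are the group most tied to interferon gamma. Gbp2 was called in PKI, and Irgm1 and Gbp7 in SmoM2; the test of the difference between these models passed for none of the 3 (adjusted p of 0.110, 0.732 and 0.300 for Gbp2, Irgm1 and Gbp7). Gbp2 was at 0.741, 0.311 and 0.416 CPM in PKI Con and at 5.44, 0.976, 4.57 and 1.14 CPM in BCC, a log2 fold change of 2.59 (SE 0.74, adjusted p = 0.0270). In Gnas-eKO it was at 0.708, 0.894 and 1.07 CPM in Con and at 4.21, 0.858, 3.28 and 3.10 CPM in BCC (1.68, SE 0.52, adjusted p = 0.130). BCC replicate 2 was the low library there, and without it the adjusted p was 0.00753. In SmoM2, Gbp2 was at 0.55 (SE 0.44) with overlapping groups. The PKI call was lost without Con replicate 2, Con replicate 3 or BCC replicate 3 (highest adjusted p 0.0970).

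In SmoM2 the called GTPases were Irgm1, a regulator of the other immunity-related GTPases, and Gbp7. Irgm1 was at 4.89, 3.58 and 3.81 CPM in Con and at 8.09, 9.08, 5.88 and 6.36 CPM in BCC, a log2 fold change of 0.84 (SE 0.21, adjusted p = 0.0129). The Irgm1 call was lost without Con replicate 2 (adjusted p = 0.0569). Gbp7 was at 1.57, 1.73 and 0.327 CPM in Con and at 2.99, 3.92, 3.29 and 2.31 CPM in BCC, a log2 fold change of 1.36 (SE 0.45, adjusted p = 0.0458). The Gbp7 call was lost when any 1 of 6 of the 7 libraries was left out (highest adjusted p 0.106). Irgm1 was at 0.35 (SE 0.26) in Gnas-eKO and 0.66 (SE 0.25, adjusted p = 0.0667) in PKI, where DESeq2 called it (adjusted p = 0.0456, with 37.2% of all genes called). Igtp, another of these GTPases, was at 0.74 (SE 0.25), 0.81 (SE 0.33) and 0.89 (SE 0.43) in SmoM2, Gnas-eKO and PKI and passed in none, with adjusted p of 0.0533, 0.222 and 0.143. The counts of Gbp7, Igtp and Irgm2 were mostly not whole numbers, so their split from near copies is uncertain. Iigp1 had 0 counts in the Con libraries of SmoM2 and PKI and 27 and 72 counts in BCC, at least 1.87-fold and 4.60-fold higher against a floor of 3 counts per Con library, and was not testable. With no filter on low counts and in the joint fit of all libraries it was called higher in both models, as it was in PKI without any 1 Con library.

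Of the remaining members, Sp100, a component of nuclear PML bodies, was called in SmoM2 and PKI. It was at 0.507, 0.404 and 0.490 CPM in SmoM2 Con and at 1.47, 1.42, 1.22 and 0.820 CPM in BCC (1.39, SE 0.35, adjusted p = 0.0154). In PKI it was at 1.48, 0.559 and 0.238 CPM in Con and at 5.69, 3.70, 3.34 and 2.12 CPM in BCC (2.24, SE 0.56, adjusted p = 0.0138). In Gnas-eKO the groups overlapped, at 0.708 to 1.07 CPM in Con and 0.582 to 1.08 CPM in BCC. Each call was lost without Con replicate 2 of its model, with adjusted p of 0.0612 in SmoM2 and 0.0598 in PKI, and most Sp100 counts were not whole numbers.

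Trim30a, a TRIM-family gene, had the highest fitted change of any member. It was at 0.0494, 0 and 0 CPM in PKI Con and at 2.03, 1.18, 1.36 and 0.923 CPM in BCC. The Con libraries held 1 count in all and the BCC libraries 111, a ratio of summed counts per summed library size of 73.5 with an exact 95% counting interval of 12.9 to 2929. Of the estimated counts of Trim30a over all libraries, 23.8% were not whole numbers, so their split from near copies is uncertain. The interval covers counting error only. The fitted log2 fold change, which depends on the prior count at this level, was 5.78 (SE 0.74, adjusted p = 0.000654), and the call remained without any 1 library. In SmoM2 BCC it was at 0.154 to 0.329 CPM and in Gnas-eKO BCC at 0.145 to 0.748 CPM, not testable in either. Xaf1, a pro-apoptotic factor, had differences of 0.43 (SE 0.43), 0.34 (SE 0.34) and 0.25 (SE 0.45) in SmoM2, Gnas-eKO and PKI, and the secreted glycoprotein gene Lgals3bp 0.32 (SE 0.34), 0.08 (SE 0.28) and 0.07 (SE 0.34). Ifi35 was at 9.64 to 19.5 CPM over all libraries and did not pass.

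**Figure D2:**
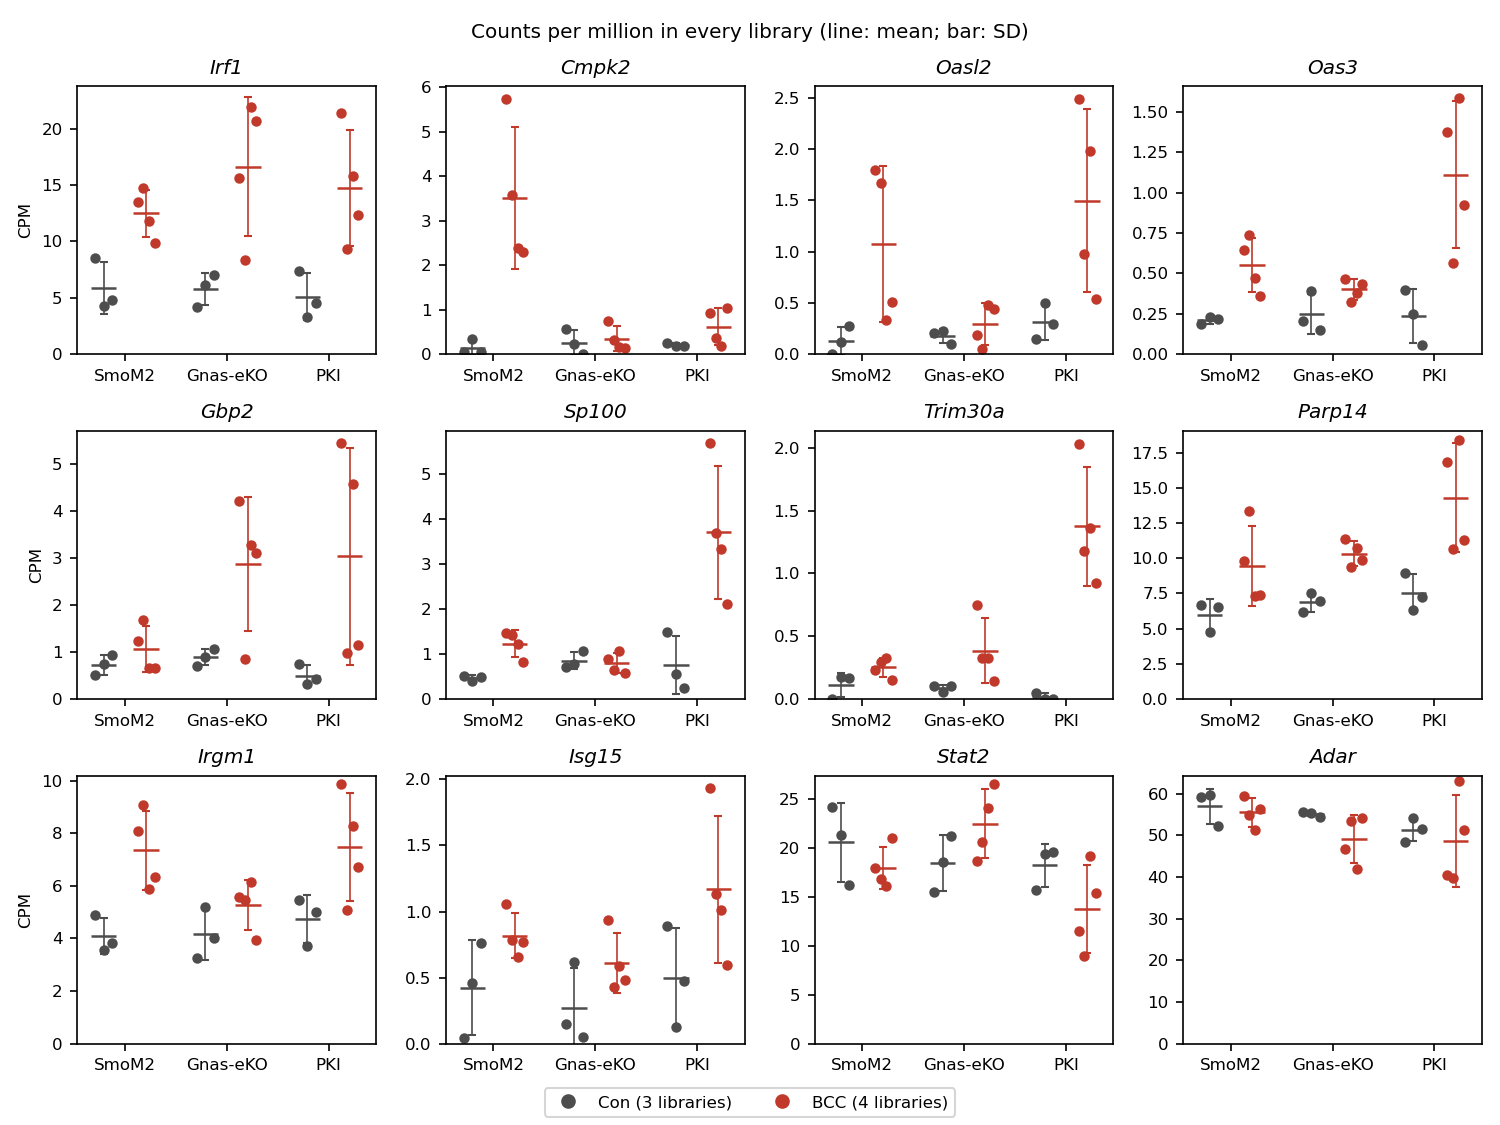
CPM of 12 members in each of the 21 libraries (y axis, linear from 0), grouped by model, with Con in grey and BCC in red; lines are means and bars SD, and a bar that would pass below 0 ends there. Irf1 and Parp14 separate BCC from Con in all 3 models, Cmpk2 stands high in SmoM2 BCC, Trim30a in PKI BCC, and Stat2 and Adar overlap except for Adar in Gnas-eKO.

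The mean log2 CPM over the tested members, with a prior count of 2, was computed per library. It was 1.65 ± 0.10 (SD, n = 3) in SmoM2 Con and 2.25 ± 0.26 (n = 4) in SmoM2 BCC, a difference of 0.60. In PKI it was 1.44 ± 0.25 in Con and 2.16 ± 0.39 in BCC, a difference of 0.72, and in Gnas-eKO 1.99 ± 0.02 and 2.38 ± 0.17, a difference of 0.39. Every BCC library lay above every Con library of its own model. The mean over all genes tested also separated the groups, with smaller differences, at 3.80 to 3.84 in Con and 3.90 to 3.94 in BCC of SmoM2, 3.76 to 3.83 and 3.86 to 3.88 in PKI, and 3.81 to 3.83 and 3.88 to 3.91 in Gnas-eKO. With the median over members in place of the mean the groups overlapped, at 1.35 to 1.51 in Con and 1.34 to 2.36 in BCC of SmoM2, 0.83 to 1.83 and 1.15 to 2.47 in PKI, and 1.92 to 2.17 and 1.96 to 2.55 in Gnas-eKO. The same difference over all genes tested was 0.11, 0.08 and 0.08 in SmoM2, PKI and Gnas-eKO. No test was made of this mean, because members were selected with results known and because the filter favours members that are high in BCC.

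The BCC libraries of a model were not alike. In SmoM2, replicates 1 and 2 were at 2.50 and 2.45 and replicates 3 and 4 at 2.06 and 1.98; the first 2 were the female libraries. The SmoM2 difference was 0.83 over female libraries (1 Con, 2 BCC) and 0.38 over male libraries (2 Con, 2 BCC). The order was reversed in PKI, where Con was at 1.71 in the female library and at 1.21 and 1.39 in the male ones. In Gnas-eKO the female and male differences were close. The part of sex in these values was not tested. In PKI, replicates 1 and 3 were at 2.55 and 2.43 and replicates 2 and 4 at 1.85 and 1.79, with 1 female library in each pair. Gene by gene, replicates 1 and 3 were the 2 highest PKI BCC libraries for 23 of the 33 tested members (69.7%), against 11.8% of all genes tested in PKI. Replicates 1 and 2 were the 2 highest in SmoM2 for 21 of 30 members (70%), against 25.4% of all genes, and replicates 1 and 3 in Gnas-eKO for 13 of 28 (46.4%), against 12.8%. These pairs were picked after the values were seen.

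**Figure D3:**
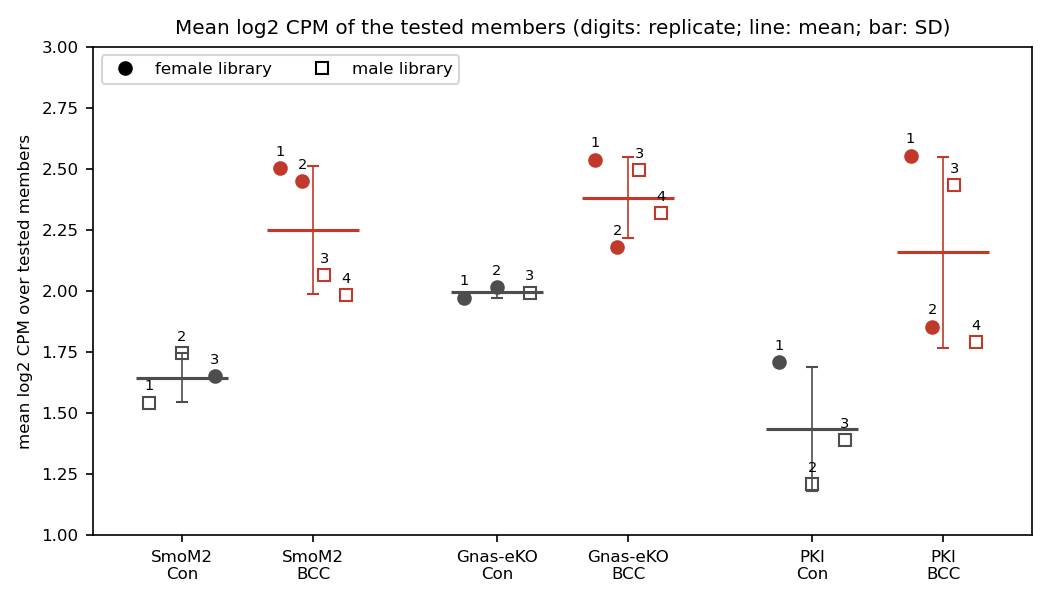
Mean log2 CPM over the tested members (y axis) in each library, by group, with the replicate number above each point, filled circles for female and open squares for male libraries, and lines and bars for the mean and SD. Each BCC group lies above its Con group, at 2.25 against 1.65 in SmoM2, 2.38 against 1.99 in Gnas-eKO and 2.16 against 1.44 in PKI; the axis does not start at 0.

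Whether the BCC change differed between models was tested with interaction contrasts. Between PKI and SmoM2, 1 of 36 members was called, where 24.9% of 17261 genes were called, 12.6% with the higher change in PKI and 12.3% with the lower. This was Trim30a, whose log2 fold change was 4.60 higher in PKI (SE 1.29, adjusted p = 0.0183). The call was lost without SmoM2 Con replicate 2 or 3 (highest adjusted p 0.0729). Trim30a passed the low-count filter only with its PKI BCC libraries, the group where it is high, and was not testable in SmoM2 alone. The size of this difference therefore depends on counts near 0 in Con. At an unadjusted p under 0.05, 3 members passed, against 37.4% of all genes. Between Gnas-eKO and SmoM2, edgeR called 0 of 30 members, where 0.175% of 17151 genes were called (0.0758% higher and 0.0991% lower in Gnas-eKO). There, 2 members had an unadjusted p under 0.05, against 8.74% of all genes, and DESeq2 called 1 (Cmpk2, lower in Gnas-eKO) and 1.24% of all genes. Between PKI and Gnas-eKO, edgeR called 0 of 36 members, where 9.06% of 17254 genes were called (4.49% higher and 4.57% lower in PKI). There, 4 members had an unadjusted p under 0.05, against 25.3% of all genes, and DESeq2 called 1 (Sp100, higher in PKI) and 13.8% of all genes. Cmpk2, called in SmoM2, had a change 3.03 lower in PKI (difference -3.03, SE 1.07, adjusted p = 0.0511) and 4.15 lower in Gnas-eKO (difference -4.15, SE 1.25, adjusted p = 0.294), neither past the threshold by edgeR. It entered the SmoM2 test only with its BCC libraries and was not testable in PKI or Gnas-eKO alone. DESeq2 and the fit with a replicate block called Cmpk2 lower in PKI than in SmoM2 (28.3% and 22.9% of all genes called), as did 5 of the fits without 1 library. Replicate numbers did not pair the libraries. For Irf1 the difference was 0.45 (SE 0.45) between Gnas-eKO and SmoM2, 0.44 (SE 0.46) between PKI and SmoM2 and 0.01 (SE 0.50) between PKI and Gnas-eKO. For Sp100 the change in PKI was 2.36 above that in Gnas-eKO (SE 0.70, adjusted p = 0.0508).

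Other genes of the pathway were read from a list of 101, of which 77 were in the table; the 21 interferon genes on it, among them Ifne and Ifnk, are not analysed here. The receptor genes Ifnar1 and Ifnar2 rose in SmoM2, at 0.49 (SE 0.07) and 0.54 (SE 0.12), and Ifngr2 rose in SmoM2 (0.36, SE 0.09) and PKI (0.70, SE 0.15); Ifngr1 passed in no model. The kinase gene Jak1 fell in SmoM2 by 0.74 on the log2 scale (SE 0.11) and in PKI by 0.28 (SE 0.07), and Tyk2 passed in no model. Irf3 passed in no model. The feedback inhibitor Socs3 rose in SmoM2 (1.02, SE 0.27) and PKI (1.59, SE 0.23), and Socs1 in PKI (0.87, SE 0.29).

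Among 44 further interferon-induced genes, 7 of the 26 tested rose and 0 fell in SmoM2, 16 of 29 rose and 1 (Oas1c) fell in PKI, and 0 of 28 were called by edgeR in Gnas-eKO. Of all genes tested, 16.2% rose and 13.5% fell in SmoM2, 18.7% rose and 15.8% fell in PKI, and 1.46% rose and 0.165% fell in Gnas-eKO. These counts were not split by whether the Con libraries alone passed the low-count filter. Genes such as Cxcl10, at 0.197 to 0.535 CPM in PKI Con, could enter the test through BCC. In SmoM2 the 7 were Psmb8, Psmb9, Tap1, Tap2, Nlrc5, a transactivator of MHC class I genes, Ifitm2 and Slfn8. Psmb8, an immunoproteasome subunit, was at 4.47, 3.52 and 5.39 CPM in SmoM2 Con and at 32.6, 33.5, 21.3 and 20.1 CPM in BCC (2.59, SE 0.25, adjusted p = 9.69e-05). In PKI it rose by 2.45 (SE 0.55), and in Gnas-eKO it was at 6.41 to 7.44 CPM in Con and 11.1 to 44.0 CPM in BCC (1.83, SE 0.42, adjusted p = 0.0668). Tap1, a peptide transporter, rose in SmoM2 (0.96, SE 0.13) and PKI (0.58, SE 0.16). The chemokine gene Cxcl10 rose in PKI, from 0.197 to 0.535 CPM in Con to 1.03 to 5.06 CPM in BCC (3.08, SE 0.64), and Ifitm3, an entry inhibitor, rose there from 42.8 to 66.2 CPM to 131 to 237 CPM (1.69, SE 0.23). The highest called pathway genes in PKI were the DNA sensor gene Aim2 (5.33, SE 0.56) and Irf8 (4.55), a factor of myeloid cells.

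Markers of other cell types differed between Con and BCC in all 3 models, on different lists. All 5 general leukocyte markers (Ptprc, Laptm5, Coro1a, Cd53 and Rac2) were higher in PKI BCC, with a summed level of 7.01 to 18.5 CPM in Con and 50.4 to 115 CPM in BCC. So were 7 of 8 Langerhans and dendritic cell markers (124 to 255 CPM in Con, 508 to 955 CPM in BCC), 7 of 9 macrophage and monocyte markers (4.99 to 12.2 against 30.5 to 62.9 CPM) and 5 of 8 T cell markers (27.2 to 52.3 against 42.5 to 89.2 CPM). The plasmacytoid dendritic cell list, mostly Ly6d, summed to 1677 to 2074 CPM in PKI Con and 1324 to 1602 CPM in BCC, with 0 of 4 testable genes higher and 1 lower by edgeR; its defining gene Siglech was at 0 CPM in Con and at most 0.349 CPM in BCC. B cell markers summed to 0.746 to 2.57 CPM in PKI Con and 2.21 to 6.41 CPM in BCC, where the 1 testable marker was called higher. The neutrophil list rested mostly on S100a8 and S100a9, which keratinocytes can also make; its 3 testable genes were higher in PKI BCC, at 2.32 to 11.7 CPM in Con and 901 to 3540 CPM in BCC. In SmoM2, 0 of the 5 general leukocyte markers were called by edgeR, at 11.5 to 14.0 CPM in Con and 9.58 to 15.2 CPM in BCC, and in Gnas-eKO 0 were called, at 15.5 to 17.4 and 16.0 to 39.9 CPM. Other lists did move in SmoM2 BCC. The neutrophil list was at 14.1 to 102 CPM in Con and 389 to 1030 CPM in BCC (2 of 3 testable genes higher), and macrophage and monocyte markers at 9.80 to 10.7 and 13.0 to 19.6 CPM (2 of 4 higher). Fibroblast markers were at 17.4 to 40.1 CPM in Con and 394 to 534 CPM in BCC (3 of 7 higher), mostly from Dcn, and endothelial markers at 1.67 to 3.27 and 4.05 to 6.33 CPM (2 of 3 higher). Langerhans and dendritic cell markers were at 214 to 271 and 285 to 362 CPM (1 of 6 higher, Epcam). T cell markers summed to less in SmoM2 BCC, at 47.7 to 61.6 CPM against 109 to 140 CPM in Con, with 1 of 5 testable genes higher and 1 lower. The plasmacytoid list was also lower in sum in SmoM2 BCC, at 1489 to 1684 CPM against 1927 to 2125 CPM (1 of 4 higher, 1 lower). Fibroblast markers were also at 15.5 to 43.0 CPM in PKI Con and 84.4 to 144 CPM in BCC (3 of 6 higher), and endothelial markers at 1.74 to 4.20 and 5.23 to 6.81 CPM (1 of 2 higher). Melanocyte markers were at 171 to 221 CPM in PKI Con and 87.1 to 137 CPM in BCC (5 of 7 lower); in SmoM2 3 of 7 were lower, with overlapping sums. In Gnas-eKO, fibroblast markers were at 16.3 to 27.5 CPM in Con and 95.6 to 580 CPM in BCC (1 of 7 higher). The neutrophil list in Gnas-eKO was at 14.9 to 75.3 CPM in Con and 54.9 to 2005 CPM in BCC, with 0 of 3 testable genes called. No gene of the next 3 lists was called there, although the sums did not overlap: Langerhans and dendritic cell markers were at 225 to 305 and 327 to 795 CPM, macrophage and monocyte markers at 11.1 to 12.9 and 13.4 to 30.3 CPM, and T cell markers, mostly Thy1, at 132 to 140 and 29.4 to 101 CPM. Within PKI BCC the leukocyte sum was 115, 81.3, 76.9 and 50.4 CPM in replicates 1 to 4, and the members were highest in replicates 1 and 3. Within Gnas-eKO BCC that sum was 39.9, 18.3, 25.6 and 16.0 CPM, and the members were highest in replicates 1 and 3. Within SmoM2 BCC the sum was 14.9, 15.2, 13.6 and 9.58 CPM, and the members were highest in replicates 1 and 2. The part of these cells in the members' values was not tested, and in bulk RNA fewer cells of a type and less RNA per cell cannot be told apart.

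**Figure D4:**
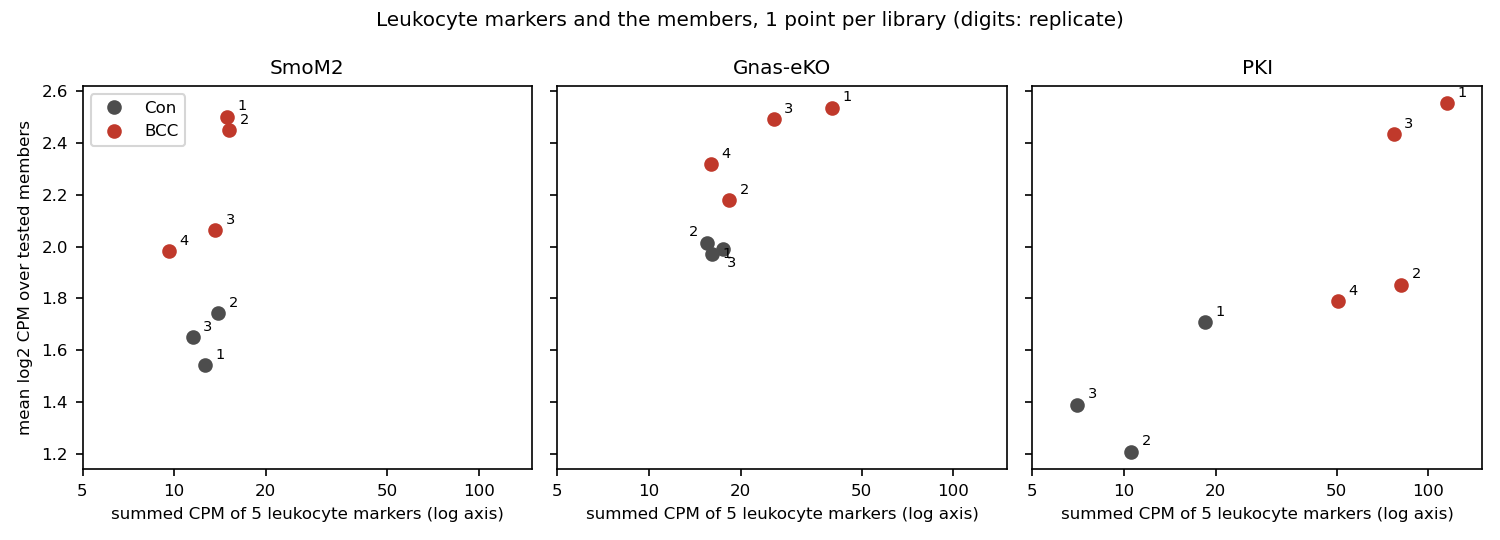
Mean log2 CPM over the tested members (y axis) against the summed CPM of 5 general leukocyte markers (x axis, log scale), 1 point per library with its replicate number, Con in grey and BCC in red. In SmoM2 the groups differ on the y axis and overlap in the sum of these 5 markers, and in PKI they differ on both axes, at 7.01 to 18.5 CPM in Con and 50.4 to 115 CPM in BCC.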

How the data were processed

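The authors deposited a table of estimated counts per gene for the 21 libraries and a table of normalised signal, in which each value is the deposited count times a factor for the library plus 0.001. The submitters' processing notes name bcl2fastq 2.20, cutadapt 1.18, STAR 2.7.0f, Partek and the build mm10. The counting step and its use of strand are not given in the sources used here. The deposited estimated counts (32.1% of values not whole, tolerance 0.0005) were rounded. BCC was set against Con within each model by the robust quasi-likelihood test of edgeR (version 4.0.16; R version 4.3.3) after filterByExpr and TMM scaling, with Benjamini-Hochberg adjustment over all genes and calls at an adjusted p under 0.05. Each SE was derived from the fold change and the F statistic. The deposited table's lowest summed count per gene was 10. The signal table served as an alternative only for the mean over members. DESeq2 1.42.0 was another alternative. Libraries within a group differed beyond sampling noise (lowest chi-square per degree of freedom 8.33 over 27 pairs). Members, gene lists and the genes named with values (26 members in every model, the called members with the 4 highest and 4 lowest changes, and 16 pathway genes, 1 of which is not reported here) were chosen with earlier results of these data known. Read sharing and overlapping genes were taken from the deposited values and the annotation: 14 members had counts that were not whole, and 12 overlapped exons of another gene.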

Additional observations from a re-analysis of the deposited data

Results flagged for a closer look

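Of 94 BCC groups of 4 libraries examined (each tested member in each model, and the 3 means), 2 held a library far from the other 3, and chance alone marks about 1 group in 20. Eif2ak2 was at 26.1 CPM in Gnas-eKO BCC replicate 3, where the next library was at 33.8 CPM. Oas1a was at 1.83 CPM in PKI BCC replicate 1, where the next was at 0.704 CPM. Trim30a changed by 4.60 more on the log2 scale in PKI than in SmoM2, by a test of the difference itself between the BCC changes of the 2 models. That test called 24.9% of all genes. Trim30a passed the low-count filter only with its PKI BCC libraries, and its call was lost without SmoM2 Con replicate 2 or 3 (highest edgeR adjusted p 0.0729).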

How the results depend on the processing

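Called members were set against 6 alternatives and against leaving out each library; Oasl2 in SmoM2 could be tested in 4 of these 7 fits. The calls of Cmpk2 and Irf1 in SmoM2 and of Irf1 and Trim30a in PKI remained in every one. With 1 library left out, members called higher ranged from 3 to 7 in SmoM2, 0 to 2 in Gnas-eKO and 4 to 10 in PKI, and members called lower from 0 to 1 in PKI; the lowest counts came without Con replicate 2 in SmoM2 and in PKI. Between models, the counts ranged from 0 to 1 for PKI against SmoM2 in each direction and for higher in PKI against Gnas-eKO. Replicate numbers did not pair the libraries (correlations of deviations -0.13 to 0.28), and the replicate block called 14 members higher in PKI (Ifit2, Igtp, Irgm1, Isg15, Parp9 and Samd9l added), where it called 36.5% of all genes, 1 lower in PKI against SmoM2 and 1 higher in PKI against Gnas-eKO; in SmoM2, Gbp7 and Oasl2 lost their call under it and Ifih1 gained one. DESeq2 called 3 members higher in Gnas-eKO, 1 lower in Gnas-eKO against SmoM2, 1 lower in PKI against SmoM2 and 1 higher in PKI against Gnas-eKO. It called 7 higher in SmoM2 (Parp14 added) and 11 in PKI (Bst2, Irgm1 and Parp9 added), with 32.4% and 37.2% of all genes. The joint fit of all libraries called 1 higher in Gnas-eKO and 1 higher in PKI against Gnas-eKO, and Oas1a in PKI lost its call (adjusted p = 0.0535). That fit called 9 members higher in SmoM2 (Ifit1, Iigp1 and Parp14 added) and 11 in PKI (Gbp3, Iigp1, Oas1g and Parp9 added), with 22.7% and 29.3% of all genes; with no filter these were 8 (Ifit1 and Iigp1 added) and 12 (Bst2, Gbp3, Iigp1 and Oas1g added), with 20.0% and 23.5%. Over all genes, Gnas-eKO calls numbered 267, with 135 under the block, 1535 by DESeq2, 2644 in the joint fit, 106 with sex as a covariate (chosen after seeing the data), 1910 without BCC replicate 2 and 0 without Con replicate 1 or 2. Calls of Gnas-eKO against SmoM2 numbered 30, with 212 by DESeq2 and 66 in the joint fit, and those of PKI against Gnas-eKO 1564, with 925 under the block and 2389 by DESeq2. The median over members in place of the mean gave differences of 0.47 in PKI, 0.39 in SmoM2 and 0.22 in Gnas-eKO; all alternatives of the 3 means stayed above 0.

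Signs turned for members that were not called. Without 1 library, Adar ranged from -0.10 to 0.0027 and Ddx58 from -0.018 to 0.24 in SmoM2. In Gnas-eKO, Eif2ak2 ranged from -0.010 to 0.14, Irf7 from -0.066 to 0.36, Lgals3bp from -0.15 to 0.18 and Mx2 from -0.91 to 0.092. In PKI, Ddx58 ranged from -0.14 to 4.5e-05, Lgals3bp from -0.27 to 0.29, Mx2 from -0.48 to 0.047 and Xaf1 from -0.078 to 0.52, and Lgals3bp was -0.032 with sex as a covariate. The cause of these changes was not tested. Depth limits the 14 members under 1 CPM, for which a difference of a few counts decides the value.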
